A study of Mus musculus with 6 samples.

Results

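The stathmin and tubulin genes described here are Stmn1, Stmn3 and Stmn4, the alpha-tubulin genes Tuba1a, Tuba1b and Tuba4a, and the beta-tubulin genes Tubb2a, Tubb4b, Tubb5 and Tubb6. These 10 genes were picked by symbol from the 16244 genes of the deposited RNA-seq table, and they were selected on the difference in normalized reads between the genotypes. Their own values are therefore given as a description, with fold changes and standard errors but without a test. The libraries came from spleen CD4+ T cells that were cultured as T helper 17 (Th17) cells, 3 libraries from WT mice and 3 from RORγt N275D knockin mice, which carry a single amino acid change. The knockin allele was made with CRISPR-Cas9 and is carried on a C57BL/6 background. The methods call the WT mice C57BL/6, and the resource list names the substrain C57BL/6NJ. The substrain of the knockin mice is not named, so a substrain difference cannot be told apart from the knockin here. The labels call the knockin genotype "Mut" and do not give the zygosity, the age or the number of the donors. The methods give an age range, both sexes and a minimum number of animals for experiments in general, not for these libraries. Both groups received the same culture: anti-CD3 and anti-CD28 for 3 days under pathogenic Th17 conditions with IL-6, IL-1β and IL-23, to which the culture methods add TGF-β, anti-IL-4 and anti-IFN-γ. The methods define n in general as independent samples, mice or experiments, to be set out in each legend. The RNA-seq legend speaks only of replicates. No source used here says that the libraries of a genotype came from separate cultures or animals. The p-values below therefore measure only the spread between these libraries, which may be technical.

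Microtubules are hollow polymers of alpha- and beta-tubulin heterodimers that grow and shrink at their ends. Each class of tubulin is encoded by several genes whose products, the isotypes, co-assemble into the same polymer. Stathmins bind free heterodimers and keep them from the polymer, and they are switched off by phosphorylation. Cells also adjust tubulin mRNA to the pool of free heterodimers: the first residues of a nascent tubulin chain are recognised at the ribosome by the factor TTC5, and the mRNA is then degraded. In T cells microtubules carry the centrosome and its vesicles to the contact with the target cell, and in dividing cells they form the spindle.

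The start of the coding sequence is shown because the nascent chain it encodes is what this autoregulation reads. These are the first 15 coding bases in the GENCODE M21 annotation of GRCm38, the assembly also called mm10, with the first 4 codons in capitals.
Tuba1a: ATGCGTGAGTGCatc
Tuba1b: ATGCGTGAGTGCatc
Tuba1c: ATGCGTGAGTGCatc
Tuba4a: ATGCGCGAGTGCatt
Tubb2a: ATGCGCGAGATCgtg
Tubb4b: ATGAGGGAGATCgtg
Tubb5: ATGAGGGAAATCgtg
The 4 capitalised codons encode methionine, arginine, glutamate and cysteine in the alpha-tubulins and methionine, arginine, glutamate and isoleucine in the beta-tubulins. Tuba1a, Tuba1b and their relative Tuba1c have the same 15 bases, and Tubb4b and Tubb5 differ in the third codon without a change of residue.

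Of the 10 genes, 9 passed the filter of a mean of at least 10 normalized reads over the 6 libraries, and Stmn3 did not. In 5 of the 9, Stmn1, Tuba1b, Tuba4a, Tubb4b and Tubb5, every N275D library lay below every WT library, as it did in 29.6% of the 11908 genes that passed the filter. In 1 of the 9, Stmn4, every N275D library lay above every WT library, which holds for 28.1% of all genes that passed. The genotypes overlapped in the other 3, Tuba1a, Tubb2a and Tubb6. Since the genes were selected on this contrast, nothing is read from these counts.

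Stmn1 encodes the cytosolic stathmin of dividing cells and was the most abundant of the 3 stathmin transcripts. Its gene lies at chr4:134468320-134473843 on the plus strand. It had 2606, 2571 and 2656 normalized reads in the WT libraries and 2098, 2272 and 2192 in the N275D libraries. The lowest WT library lay above the highest N275D library. The means were 2611 ± 42.6 in WT and 2188 ± 87.0 in N275D cells (SD, n = 3 each), which is 16.2% lower in N275D cells. The log2 fold change, on the scale of log2(normalized reads + 1), was -0.26 with a standard error (SE) of 0.04. Part of the Stmn1 transcript, 16.6% of its 150-base windows, also occurs in the annotated transcript Gm11223, so that reads from there could be placed in either.

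Stmn4 encodes a membrane-anchored stathmin best known from neurons, and it changed most among the 10 genes. Its gene lies at chr14:66344210-66361680 on the plus strand and shares no 150-base window with another annotated transcript. It had 9.08, 12.1 and 10.8 normalized reads in the WT libraries, which are 9, 12 and 11 reads if the smallest step of a library is taken as 1 read. The N275D libraries had 65.9, 67.2 and 68.1 normalized reads, or 66, 67 and 69 reads on the same basis. The 3 N275D values lay close together and far above the 3 WT values. The means were 10.7 ± 1.52 in WT and 67.1 ± 1.13 in N275D cells (SD, n = 3 each), a ratio of 6.29. The log2 fold change of 2.55 (SE 0.20) was the 12th largest increase among the 11908 genes. It was the only one of the 9 genes to differ by at least 2-fold; of all genes, 3.59% were at least 2-fold apart with a limma adjusted p below 0.05. With a pseudocount of 10 in place of 1 the log2 fold change of Stmn4 was 1.90, since its WT level is low.

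Stmn3 encodes another stathmin best known from neurons, at chr2:181306459-181314500 on the minus strand. A single read was counted in WT replicate 2 and a single read in N275D replicate 2, and the other 4 libraries were at 0. Both genotypes were under a floor of 3 reads over the group, so no fold change is given, and a difference was not detectable at this depth.

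Compared per kilobase of transcript, the pool of the 3 stathmins in both genotypes was nearly all Stmn1. Stmn1 had 2463 normalized reads per kb in WT and 2064 in N275D cells, and Stmn4 had 7.84 and 49.3. Stmn4 made up 0.317% ± 0.0472 of the summed stathmin reads per kb in WT and 2.33% ± 0.0727 in N275D cells (SD, n = 3 each). The sum of the stathmins was 2471 ± 39.4 per kb in WT and 2113 ± 83.0 in N275D cells (SD, n = 3 each). The summed stathmin transcripts were thus lower in N275D than in WT cells although Stmn4 was higher.

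**Figure D1:**
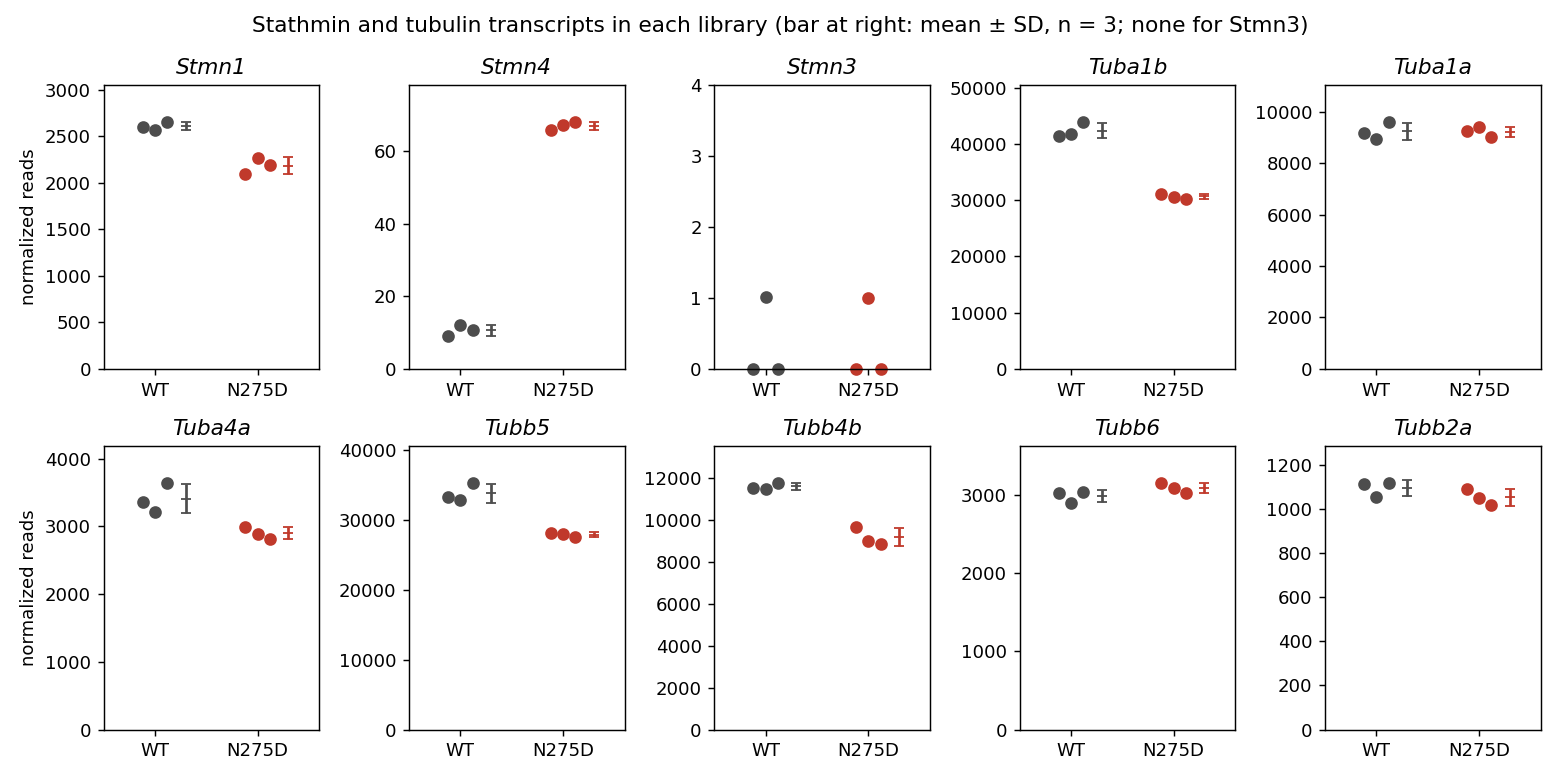
Normalized reads (vertical axes, linear and starting at 0, a scale for each gene) of the 10 stathmin and tubulin genes in 3 WT (grey) and 3 N275D (red) libraries; points are libraries, and the bar beside them is the mean ± SD, left out for Stmn3. The N275D points of Stmn4 lie between 65.9 and 68.1 and the WT points between 9.08 and 12.1, while in Tuba1b, Tuba4a, Tubb4b, Tubb5 and Stmn1 the red points all lie under the grey ones.

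Because Stmn4 is best known from neurons, the other neuronal markers were read beside it. Rbfox3, Elavl4, Dcx and Stmn2 are not listed by symbol among the 16244 genes, which left 7 of 11 markers. Syt1, Nefl and Nefm had at most 3.01 normalized reads in any library, and Elavl3 had at most 7.06. The mean of Elavl3 was 4.69 in WT and 78.7% lower in N275D cells, and that of Nefm went from 0.655 to 0. Syt1 and Nefl had higher means, 0.333 and 1.34 in N275D cells against 0 and 0.336 in WT. The libraries of all these genes overlapped between the genotypes, and none passed the filter, so they were not tested. The summed level of the 7 markers was 541 to 602 normalized reads in the WT and 1137 to 1165 in the N275D libraries, of which Gap43, a growth cone protein, gave 475 to 525 and 1026 to 1042. By limma, Gap43 (log2 fold change 1.04), Snap25 (0.65) and Tubb3 (0.85) rose in N275D cells with adjusted p = 2.58e-10, 0.00485 and 0.000233. Their part in the Stmn4 result was not tested.

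Tuba1b, the main alpha-tubulin transcript of these cells, was the most abundant of the 10 genes and showed the lowest fold change. Its gene lies at chr15:98931429-98934390 on the minus strand. It had 41487, 41753 and 43912 normalized reads in the WT libraries and 31174, 30640 and 30178 in the N275D libraries. All N275D libraries lay far under all WT libraries, and WT replicate 3 was the highest. The means were 42384 ± 1330 and 30664 ± 498 (SD, n = 3 each), 27.7% lower in N275D cells, and the log2 fold change was -0.47 (SE 0.03).

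Tuba1a, which is needed for the migration of neurons, lies next to Tuba1b at chr15:98949847-98953501 on the minus strand. It had 9157, 8938 and 9599 normalized reads in the WT libraries and 9251, 9403 and 9010 in the N275D libraries. The libraries of both genotypes were interleaved. The means were 9231 ± 336 and 9221 ± 198 (SD, n = 3 each), and the log2 fold change was -0.0011 (SE 0.04). Under quantile scaling this value was 0.06, so that its sign has no meaning.

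Tuba4a encodes an alpha-tubulin whose last residue is not the tyrosine of the other isotypes. Its gene lies at chr1:75214972-75221261 on the minus strand. It had 3362, 3221 and 3646 normalized reads in the WT libraries and 2996, 2890 and 2820 in the N275D libraries. The genotypes were apart, but the gap was narrower than in Tuba1b. The means were 3410 ± 217 and 2902 ± 88.8 (SD, n = 3 each), 14.9% lower in N275D cells, and the log2 fold change was -0.23 (SE 0.05). Tuba4a overlaps Stk16, a kinase gene that went from 932 to 808 normalized reads, and whether the counting used the strand is not given in the sources used here.

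Tubb5 was the most abundant beta-tubulin transcript. Its gene lies at chr17:35833920-35838301 on the minus strand and shares no 150-base window with another annotated transcript. It had 33269, 32765 and 35304 normalized reads in the WT libraries and 28185, 27910 and 27594 in the N275D libraries. The N275D libraries lay within a narrow range below all WT libraries. The means were 33779 ± 1344 and 27896 ± 296 (SD, n = 3 each), 17.4% lower in N275D cells, and the log2 fold change was -0.28 (SE 0.03).

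Tubb4b, a beta-tubulin of many cell types and of cilia, followed at chr2:25222158-25224702 on the minus strand. It had 11546, 11492 and 11782 normalized reads in the WT libraries and 9668, 8982 and 8880 in the N275D libraries. The WT libraries lay close together, and N275D replicate 1 was the nearest to them. The means were 11606 ± 155 and 9176 ± 428 (SD, n = 3 each), 20.9% lower in N275D cells, and the log2 fold change was -0.34 (SE 0.04).

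Tubb6 and Tubb2a were the less abundant beta-tubulins and overlapped between the genotypes. Tubb6 (chr18:67390731-67402749, plus strand) had 3033, 2898 and 3034 normalized reads in the WT libraries and 3159, 3095 and 3025 in the N275D libraries. Its log2 fold change was 0.05 (SE 0.04), and the direction is not resolved from the spread. Tubb2a (chr13:34074278-34078008, minus strand) had 1113, 1054 and 1118 normalized reads in the WT libraries and 1090, 1050 and 1015 in the N275D libraries. Its log2 fold change was -0.06 (SE 0.05), again within the spread of the libraries.

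The order of the libraries within a genotype was much the same across the tubulin genes. WT replicate 3 had the highest WT value in 7 of 7, in Tubb6 only by 3034 against 3033, and WT replicate 2 had the lowest in 6. N275D replicate 3 had the lowest N275D value in 7 of 7, and N275D replicate 1 had the highest in 6. How often other genes had the same order was not counted, so nothing particular to tubulins is read from it. Without WT replicate 3, the log2 fold changes of Tuba1b, Tubb5 and Tuba4a were -0.44, -0.24 and -0.18. WT replicate 3 was also the WT library that differed most from the others over all genes. Its median chi-square against them was 2.95 and 3.02 times that of counting noise, against 1.37 between the other WT libraries. The smallest step of a library was taken as 1 read for these values.

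The near-identical alpha-tubulin genes can exchange reads. Of the 150-base windows of the Tuba1b transcript, 57.9% also occur in other annotated transcripts. By transcript, 40.7% of the windows occur in Tuba1c, 27% in Gm49450, 18.7% in Gm14150 and 17.5% in Tuba1a. For Tuba1a 54.7% of the windows are shared, and how reads that map to several genes were counted is not given in the sources used here. The split among Tuba1a, Tuba1b and Tuba1c is therefore uncertain, and their reads were also pooled. Pooling leaves out any reads counted in Gm49450, Gm14150 or the other transcripts that share windows. The pooled reads were 58232, 58581 and 61465 in the WT and 48238, 47667 and 46552 in the N275D libraries. The genotypes did not overlap, and the pooled mean was 20.1% lower in N275D cells. Tubb2a shares 27.9% of its windows with Tubb2b, and the pooled reads of these beta-tubulins were 2207 ± 80.8 in WT and 2203 ± 109 in N275D cells (SD, n = 3 each), with overlapping libraries. Tubb4b shares 16.8% of its windows with the annotated transcript Tubb4b-ps1, so that reads from there could be placed in either. The tubulin genes Tubb5, Tubb6 and Tuba4a share no window with another annotated transcript.

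**Figure D2:**
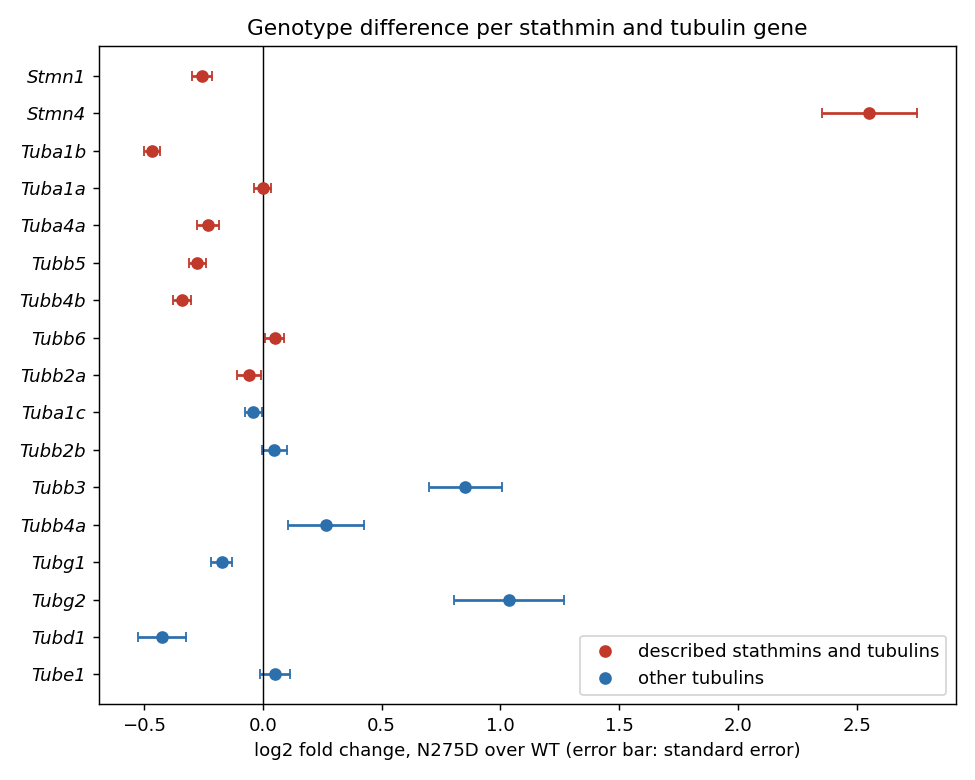
Log2 fold change of N275D over WT (horizontal axis) for the 9 stathmin and tubulin genes described (red) and 8 other tubulin genes (blue) that passed the filter; error bars are standard errors from limma. Stmn4 stands at 2.55, Tubg2 and Tubb3 at 1.04 and 0.85, and the abundant Tuba1b, Tubb4b and Tubb5 between -0.47 and -0.28.

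Levels of different genes were compared per kilobase of the longest protein-coding transcript. The levels of genes with shared windows rest on how shared reads were counted, which is not given. In WT cells the order was Tuba1b with 24320 ± 763 normalized reads per kb, Tubb5 with 12750 ± 507, Tubb4b with 7263 ± 96.8 and Tuba1a with 5120 ± 187 (SD, n = 3 each). It went on with Tuba1c at 3941 ± 98.7, Stmn1 at 2463 ± 40.2, Tubb6 at 1700 ± 44.5, Tuba4a at 1201 ± 76.3 and Tubb2a at 680 ± 22.1 (SD, n = 3 each). Every neighbouring pair in this order was further apart than the SD of either gene. N275D cells had the same order, with Tubb4b at 5742 ± 268 and Tuba1a at 5114 ± 110 (SD, n = 3 each).

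Within the alpha-tubulin pool the composition shifted away from Tuba1b. Tuba1b held 70.2%, 70.4% and 70.3% of the summed alpha-tubulin reads per kb in the WT libraries and 63.8%, 63.6% and 64.1% in the N275D libraries. The shares of the 3 libraries of a genotype lay within 1 percentage point, and the genotypes were far apart. Tuba1a held 14.8% ± 0.213 in WT and 18.6% ± 0.275 in N275D cells, and Tuba1c held 11.4% ± 0.263 and 13.9% ± 0.16 (SD, n = 3 each). The share of Tuba4a was 3.47% ± 0.127 and 3.71% ± 0.0514 (SD, n = 3 each). These shares rest on the split of reads among the near-identical genes.

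In the beta-tubulin pool the shares of the main isotypes lay closer between the genotypes. Tubb5 held 55.6% ± 0.595 of the summed beta-tubulin reads per kb in WT and 54.6% ± 0.762 in N275D cells (SD, n = 3 each). Its shares were 55.2%, 55.2% and 56.2% in the WT and 53.8%, 55.0% and 55.2% in the N275D libraries, so the genotypes nearly met. Tubb4b held 31.7% ± 0.504 and 29.8% ± 0.688, and Tubb6 held 7.41% ± 0.155 and 9.13% ± 0.0563 (SD, n = 3 each). Tubb2a held 2.96% ± 0.0649 and 3.39% ± 0.0436 (SD, n = 3 each). The isotypes whose own levels overlapped between the genotypes thus took up a larger share of a smaller pool.

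**Figure D3:**
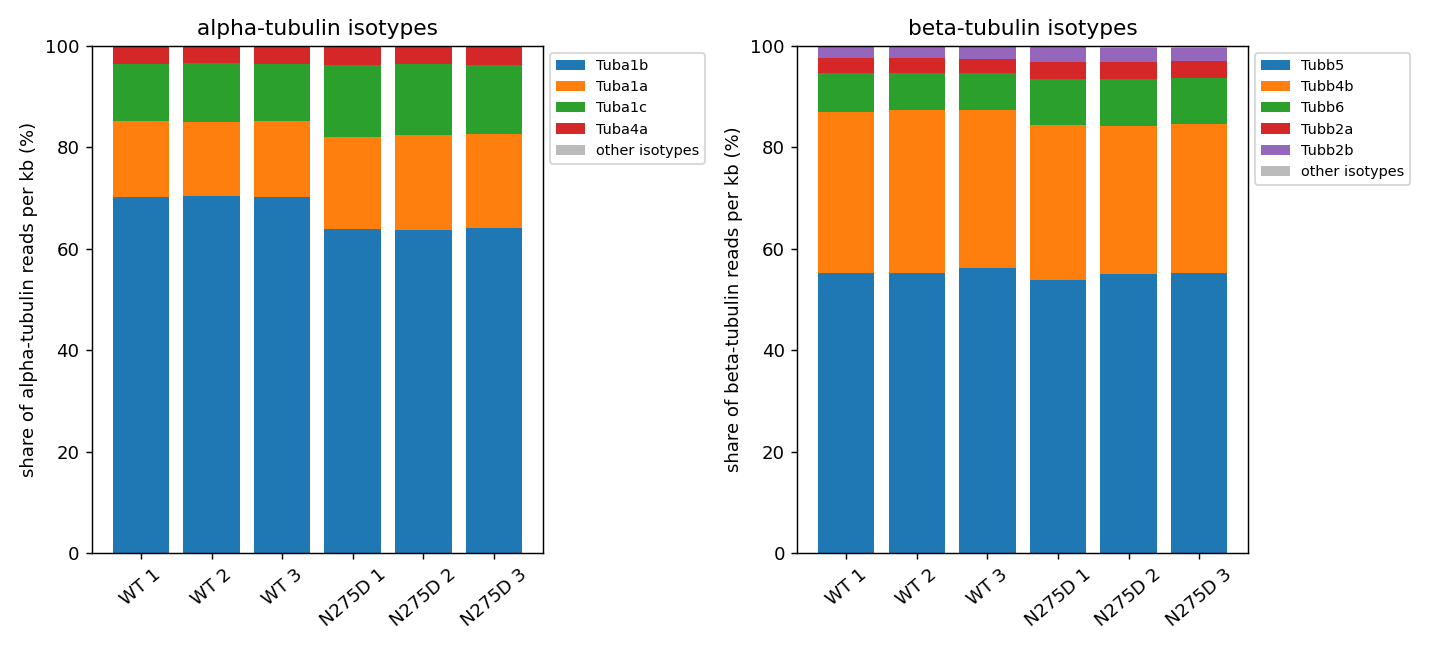
Share of each isotype (vertical axis, percent) in the summed normalized reads per kb of alpha-tubulin (left) and beta-tubulin (right) in each of the 6 libraries; colours are genes, and isotypes with a mean share of at most 1% are drawn together in grey. The Tuba1b block falls from 70.3% in WT to 63.8% in N275D cells on average, while the Tubb5 block goes from 55.6% to 54.6%.

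Summed over isotypes, alpha-tubulin had 34580 ± 1070 normalized reads per kb in WT and 27570 ± 503 in N275D cells, 20.3% lower, and beta-tubulin had 22950 ± 672 and 19280 ± 464, 16.0% lower (SD, n = 3 each). The ratio of alpha- to beta-tubulin transcripts was 1.49, 1.52 and 1.51 in the WT libraries and 1.42, 1.44 and 1.43 in the N275D libraries. It was lower in every N275D library than in any WT library. Of the 150-base windows, 57.9% were shared in Tuba1b and 0 in Tubb5, and how shared reads were counted is not given. The sums and the level of this ratio are therefore uncertain. The 16 alpha- and beta-tubulin genes together took 0.627% ± 0.0177 of all normalized reads in WT and 0.525% ± 0.0099 in N275D cells (SD, n = 3 each). In bulk RNA-seq, fewer cells of a type and less RNA per cell cannot be told apart.

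Beside the coding starts shown above, Tuba1a, Tuba1b and Tuba1c share all 15 bases and had log2 fold changes of -0.0011, -0.47 and -0.04, values that rest on the uncertain split of their reads. The 4 codons encode the same residues in Tubb2a, Tubb4b and Tubb5, whose log2 fold changes were -0.06, -0.34 and -0.28. The part of autoregulation in these values was not tested.

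The promoters of the 3 most abundant tubulin genes, which were lower in N275D cells, are shown with that of Tuba1a, whose genotypes overlapped. They are the 150 bases before the RefSeq start on GRCm38.p6, written in the direction of the gene, with each CCAAT box in capitals.
Tuba1b (chr15:98934391-98934540, minus strand): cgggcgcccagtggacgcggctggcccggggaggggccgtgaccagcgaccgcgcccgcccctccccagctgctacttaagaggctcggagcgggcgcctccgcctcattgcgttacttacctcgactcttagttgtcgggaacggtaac
Tubb5 (chr17:35838302-35838451, minus strand): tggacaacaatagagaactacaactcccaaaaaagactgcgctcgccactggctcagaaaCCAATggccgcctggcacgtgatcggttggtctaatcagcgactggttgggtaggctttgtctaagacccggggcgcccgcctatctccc
Tubb4b (chr2:25224703-25224852, minus strand): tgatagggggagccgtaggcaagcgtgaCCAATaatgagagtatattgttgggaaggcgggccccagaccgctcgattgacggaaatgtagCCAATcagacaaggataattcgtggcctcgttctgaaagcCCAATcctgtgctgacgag
Tuba1a (chr15:98953502-98953651, minus strand): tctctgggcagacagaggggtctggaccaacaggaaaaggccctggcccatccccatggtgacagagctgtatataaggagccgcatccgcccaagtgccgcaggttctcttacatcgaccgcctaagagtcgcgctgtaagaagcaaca
The motif search read both strands of windows from 250 bases before to 50 after the start. Windows were available for 7 of the 10 genes, Stmn3, Tuba1a, Tuba1b, Tuba4a, Tubb2a, Tubb4b and Tubb5. Stmn1, Stmn4 and Tubb6 had no window, and that of Stmn3 held none of the motifs searched. The start used for Tuba4a lies inside the gene coordinates given above. CCAAT was found in 3 of the 7, 5 times in Tubb4b, 2 times in Tubb5 and 1 time in Tuba1a, and in 37.4% of all 32851 promoter windows. GGGCGG, the core of a GC box, was found in 6 of the 7 and in 35.7% of all windows. The hypoxia element core GCGTG was found in 5 of the 7 and in 32.4% of all windows, and ACGTG in 1, Tubb5, and in 19.6%. In Tubb5 the ACGTG matches on the opposite strands overlap. AGGTCA, the core of the site that ROR receptors bind, was found in 0 of the 7 and in 16.3% of all windows, and TATAA in 4 of the 7 and in 24.9%. TTTGAA, which occurs in elements of cell cycle genes, was found in Tubb4b and in 17.9% of all windows. GGGCGG was found in the windows of both Tuba1b and Tuba1a, CCAAT and TATAA in that of Tuba1a alone of these genes, and GCGTG in that of Tuba1b.

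Among the other genes of the family, 8 passed the filter and were tested with limma, with p-values adjusted by the Benjamini-Hochberg method over the 11908 genes. Of all genes tested, 50.9% had an adjusted p below 0.05, 26.1% lower and 24.7% higher in N275D cells. Of the 8, 2 rose and 2 fell. Tubb3, the beta-tubulin isotype best known from neurons, had 33.3, 37.3 and 33.4 normalized reads in the WT and 58.9, 68.2 and 63.2 in the N275D libraries, and it rose by a log2 fold change of 0.85 (SE 0.15 by limma, adjusted p = 0.000233). Tubg2, a gamma-tubulin, rose from 16.0 ± 2.87 to 33.9 ± 6.27 reads (normalized, SD, n = 3 each, log2 fold change 1.04, SE 0.23, adjusted p = 0.00146 by limma). The main gamma-tubulin Tubg1, which templates new microtubules, fell from 1836 ± 48.7 to 1628 ± 42.2 reads (normalized, SD, n = 3 each, log2 fold change -0.17, SE 0.04, adjusted p = 0.00324 by limma). Tubd1, the delta-tubulin of centrioles, fell from 196 ± 15.1 to 147 ± 16.9 reads (normalized, SD, n = 3 each, log2 fold change -0.42, SE 0.10, adjusted p = 0.00258 by limma). Tuba1c and Tubb2b, the near-identical relatives, had log2 fold changes of -0.04 and 0.05 and were not called (adjusted p = 0.381 and 0.476 by limma). Tube1 was not called either (log2 fold change 0.05, adjusted p = 0.531 by limma). Tubb4a had a log2 fold change of 0.27 and was not called (adjusted p = 0.176 by limma), but was without N275D replicate 2 (adjusted p = 0.0398). Tuba3a, Tuba3b, Tuba8, Tubal3 and Tubb1 had at most 7.86 normalized reads in any library and were not tested.

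The kinases known to phosphorylate stathmin changed in both directions: of 8 tested, 3 rose and 3 fell, against 24.7% and 26.1% of all genes. The kinases had a median log2 fold change of -0.03 against -0.0026 over all genes. Camk4, a calcium-dependent kinase that phosphorylates Stmn1 in T cells, had 764, 696 and 712 normalized reads in the WT and 1341, 1281 and 1328 in the N275D libraries. It rose by a log2 fold change of 0.86 (SE 0.05 by limma, adjusted p = 1.26e-09). Pak1, a kinase downstream of Rac and Cdc42, rose from 142 ± 8.21 to 181 ± 11.8 reads (normalized, SD, n = 3 each, log2 fold change 0.35, adjusted p = 0.00499 by limma). Plk1, a mitotic kinase, fell from 2983 ± 76.9 to 2387 ± 69.9 reads (normalized, SD, n = 3 each, log2 fold change -0.32, adjusted p = 7.08e-06 by limma). Cdk1 and Aurkb, also mitotic kinases, fell by 0.26 and 0.28 on the log2 scale, and Mapk8, a stress-activated kinase, rose by 0.19.

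Of 23 tested factors that fold tubulin and adjust its mRNA, 1 rose, 6 fell and 16 were not called. Of all genes tested, 24.7% rose and 26.1% fell. The 23 had a median log2 fold change of -0.08. Ttc5, which reads the nascent tubulin chain, had a log2 fold change of -0.0080 (adjusted p = 0.915 by limma). Pfdn2, a subunit of the prefoldin chaperone, fell from 1588 ± 107 to 1203 ± 65.8 reads (normalized, SD, n = 3 each, log2 fold change -0.40, adjusted p = 2.13e-05 by limma). Cct3, a subunit of the chaperonin that folds tubulin, fell by 0.15 on the log2 scale (adjusted p = 0.00453 by limma), but not past the threshold under quantile scaling or without a trend in the prior. Tbce, a tubulin cofactor, rose by 0.20 (adjusted p = 0.0208 by limma), a call that was lost without WT replicate 3, N275D replicate 2 or N275D replicate 3, and without a trend. Without WT replicate 3, 11 of the 23 fell.

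Of 15 tubulin-modifying enzymes tested, 2 rose and 3 fell, against 24.7% and 26.1% of all genes. The 15 had a median log2 fold change of 0.01. The 2 that rose, Vash1 and Svbp, are the enzyme and the partner that together remove the last tyrosine of alpha-tubulin. Vash1 had 213, 200 and 215 normalized reads in the WT and 304, 346 and 351 in the N275D libraries, a log2 fold change of 0.67 (SE 0.08 by limma, adjusted p = 3.73e-06). Svbp went from 128 ± 7.46 to 164 ± 18.6 reads (normalized, SD, n = 3 each, log2 fold change 0.35, adjusted p = 0.0102 by limma), and its call was lost without N275D replicate 1 and under quantile scaling. Ttl, the ligase that restores the tyrosine, was not called (log2 fold change 0.01, adjusted p = 0.886 by limma). Ttll12, of the tyrosine ligase-like family, fell from 1905 ± 79.9 to 1497 ± 68.5 reads (normalized, SD, n = 3 each, log2 fold change -0.35, adjusted p = 1.89e-05 by limma).

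Of 24 microtubule-associated proteins tested, 4 rose and 7 fell, against 24.7% and 26.1% of all genes. The 24 had a median log2 fold change of -0.01. Mid1, a ubiquitin ligase that sits on microtubules, had 2568, 2542 and 2909 normalized reads in the WT and 213, 238 and 236 in the N275D libraries. Its log2 fold change was -3.54 (SE 0.06 by limma, adjusted p = 5.20e-16). Map1b, a lattice-binding protein best known from neurons, rose from 41.3 ± 6.08 to 110 ± 13.7 reads (normalized, SD, n = 3 each, log2 fold change 1.39, adjusted p = 1.20e-06 by limma). Map1a, of the same family, fell from 35.6 ± 2.31 to 21.9 ± 5.19 (SD, n = 3 each, log2 fold change -0.70, adjusted p = 0.0127 by limma), a call that was lost without N275D replicate 2.

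Of 19 nucleation genes tested, 2 rose and 3 fell, against 24.7% and 26.1% of all genes. The 19 had a median log2 fold change of -0.05. Mzt1, a small subunit of the gamma-tubulin ring, rose by 0.44 on the log2 scale (adjusted p = 0.000353 by limma), and Akap9, a centrosomal and Golgi scaffold, rose by 0.26 (adjusted p = 0.00021 by limma). Tubgcp6, a large ring subunit, fell by 0.28 (adjusted p = 9.15e-05 by limma). Without WT replicate 3, 6 of the 19 fell. Of 9 severing enzymes and depolymerising kinesins tested, 1 rose and 2 fell, against the same 24.7% and 26.1%. The 9 had a median log2 fold change of -0.09. Katnal1 (log2 fold change 0.21), Fignl1 (-0.12) and Kif2c (-0.12) had adjusted p-values by limma of 0.0458, 0.0342 and 0.0248, and each call was lost under quantile scaling and when single libraries of either genotype were left out. Over these 7 groups, 41 of 106 genes tested were called, 15 higher and 26 lower, which is 38.7% against 50.9% of all genes.

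**Figure D4:**
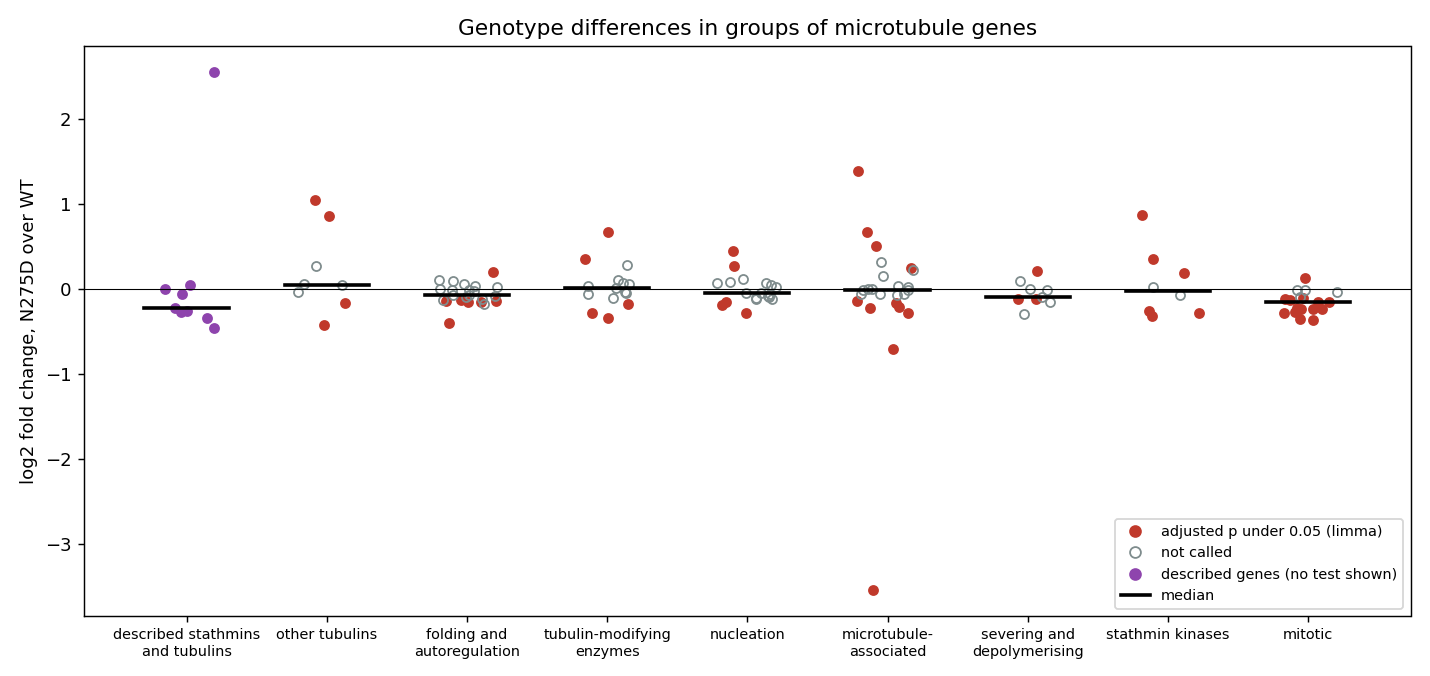
Log2 fold change of N275D over WT (vertical axis) for the tested genes of the stathmin and tubulin group and of 8 other gene groups; filled red points had an adjusted p under 0.05 by limma, open points did not, and black bars are medians. Purple points are the 9 described genes, selected on this contrast and shown without a test; the group medians lie between -0.23 and 0.05, with Stmn4 at 2.55 and Mid1 at -3.54 farthest from 0.

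Tubulin and Stmn1 mRNA are abundant in dividing cells, so mitotic genes were read beside them. Of 18 mitotic genes, 13 fell, 1 rose and 4 were not called, where 26.1% of all genes tested were lower and 24.7% higher, with a median log2 fold change of -0.16 and a range from -0.36 for Bub1b to 0.12 for Cenpf. Bub1b, of the spindle checkpoint, fell from 3118 ± 34.1 to 2422 ± 55.7 reads (normalized, SD, n = 3 each; adjusted p = 1.07e-06 by limma). Mki67, the proliferation marker, fell from 13793 ± 646 to 12664 ± 455 reads (normalized, SD, n = 3 each, log2 fold change -0.12, adjusted p = 0.016 by limma), but its libraries overlapped and the call was lost without WT replicate 1 or 2 or N275D replicate 1 or 2, under quantile scaling and without a trend. The call of Cenpf (adjusted p = 0.0449 by limma) was lost without any 1 of 5 libraries, all but WT replicate 2. The summed mitotic level was 62500 to 66860 normalized reads in the WT and 57020 to 58250 in the N275D libraries. Its part in the lower tubulin and Stmn1 levels was not tested.

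With the smallest step of a library taken as 1 read, the libraries held 17659035 to 18510878 reads on genes. Cd3e, Cd4, Il17a, Il17f and Il23r marked them as Th17 cells in both genotypes. The summed level of these 5 T cell markers was 68850 to 72790 normalized reads in the WT and 80150 to 81040 in the N275D libraries. Their directions differed. Cd3e and Cd4 fell by log2 fold changes of -0.22 and -0.27 (adjusted p = 0.00586 and 1.16e-05 by limma). Il17a, Il17f and Il23r rose by 0.23, 0.26 and 0.70 (adjusted p = 1.56e-05, 5.00e-05 and 3.25e-07 by limma). The B cell markers Cd79a, Cd79b, Ms4a1 and Pax5 summed to 101 to 108 normalized reads in the WT and 139 to 184 in the N275D libraries, and Cd79a and Pax5 rose by log2 fold changes of 0.94 and 0.42 (adjusted p = 0.00475 and 0.0228 by limma). The 4 CD8 T and natural killer cell markers summed to 129 to 149 and 182 to 188, with Cd8b1 higher (log2 fold change 0.58, adjusted p = 0.000145 by limma) and Cd8a not called (-0.22, adjusted p = 0.401). The 5 myeloid markers summed to 81.8 to 92.8 and 82.0 to 106, but their members differed: Adgre1 fell by 1.70 on the log2 scale (adjusted p = 0.000512 by limma), Cd68 was not called (0.32, adjusted p = 0.109), and Lyz2, below the filter, had 3.03 to 6.06 normalized reads in the WT and 7.02 to 8.98 in the N275D libraries. The part of such cells in the stathmin and tubulin values was not tested.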

How the data were processed

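RNA was measured in 6 libraries, grouped and numbered from their labels. According to the methods, reads were trimmed, aligned to mm10 with STAR and counted with featureCounts; the methods name strand-specific DNBSEQ libraries and the labels poly-A selection with another directional kit. The deposited signal values are normalized reads, in which the authors scaled each library's gene reads by a single factor, and 100% of them were whole multiples of that factor within 1e-06. The deposited log2 fold changes, q-values and group averages were not used. All 11908 genes with a mean of at least 10 were fitted with limma 3.58.1 (R 4.3.3) on log2(normalized reads + 1) with a trended prior and no block, and called at a Benjamini-Hochberg adjusted p under 0.05. The method was tested on simulated data. This scale understates differences in low genes. With the smallest step of a library taken as 1 read, replicates differed by 1.32 to 3.02 times the counting noise, so each library counted once.

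The genes described and all lists were chosen with earlier results of these data known. Named were those 10 genes, their relatives with a mean of at least 10, the 3 called genes with the largest absolute log2 fold change in each other list, Mki67 and the lowest and highest mitotic gene. Ttc5, Ttl, Gap43, Snap25, Cdk1, Aurkb and Mapk8 and the marker genes stand outside that rule. From the marker lists, 2 genes are not reported here. Gene coordinates and promoters are from RefSeq (GRCm38.p6, the build mm10; 16135 of 16244 genes matched by number), and transcript lengths and coding starts from GENCODE M21. Alternatives were pseudocounts of 0.1 and 10, means above 0 or of at least 100, TMM and quantile scaling, no trend, the replicate number as a block, and each library left out.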

Additional observations from a re-analysis of the deposited data

How the results depend on the processing

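None of the stathmin and tubulin fold changes past the spread of their libraries changed direction under the alternatives run. Called genes at any fold numbered 5158 to 6398, and at least 2-fold 413 to 456, when each library was left out in turn. At least 2-fold, 259 genes were called with a pseudocount of 10, 703 with a mean above 0 and 162 with a mean of at least 100, in place of 427. Quantile scaling called 378 at 2-fold, of which 61.4% were higher in N275D cells in place of 76.1%. It gave log2 fold changes of -0.19 for Stmn1, 2.36 for Stmn4, -0.29 for Tubb4b and 0.11 for Tubb6. With a mean of at least 100, 0 other tubulins rose in place of 2, because both have lower means, and 2 microtubule-associated genes rose in place of 4, as under quantile scaling. By limma, 0 folding genes rose without a trend (2 at an unadjusted p under 0.05), and 2 fell under quantile scaling and 3 without a trend. Of the modifying enzymes, 1 rose under quantile scaling. Of the severing genes, 0 rose by limma with a mean above 0, under quantile scaling or with the replicate block (1, 0 and 1 at an unadjusted p under 0.05). Under quantile scaling and with the block 0 fell (1 and 2 at an unadjusted p under 0.05), and 1 fell without a trend. With a library left out, the folding genes that rose numbered 0 to 1 and those that fell 5 to 11, the modifying enzymes that rose 1 to 2, the nucleation genes that fell 2 to 6, and the severing genes that rose 0 to 1 and fell 0 to 3. The genes described with every N275D library below every WT library numbered 5 to 6. Except where an alternative's own construction shows it, the cause was not tested.

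Same-numbered libraries did not deviate together (correlations of -0.05, 0.04 and -0.08 across genes). With 3 libraries per genotype, these correlations cannot exclude that the numbers pair the libraries. With the replicate number as a block, 5727 genes were called, 428 of them at least 2-fold. Among single genes, 516 values kept their side of the threshold or moved by less than the spread, 44 lost the call, 1 gained it and 6 values of the described genes moved by more than their spread. All kept their sign except Tuba1a, which turned from -0.0011 to 0.00023 under TMM scaling, 0.06 under quantile scaling, 0.03 without WT replicate 3 and 0.02 without N275D replicate 3. The planned count tests were not run, because the factors of 4 of the 6 libraries lie within 1% of 1 and whole reads were not taken as shown there. Stmn3 was limited by depth.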
